A study of Mus musculus with 12 samples.

Results

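The genes described here are 8 genes of the complement system and the acute phase response, C3, Cfb, C1qa, C1qb, C1qc, Cfp, Saa3 and Lcn2, in the mouse microglial line BV-2, an immortalised model of the macrophages that reside in the brain. They were chosen by name, through the RefSeq accession of their array probes, with earlier results of these data known. They are 8 of the 17305 genes with a symbol on the array, and all 8 were among the 19318 genes and transcripts tested. The cells had received 20 µM curcumin (a turmeric polyphenol) together with LPS at 100 ng/ml (lipopolysaccharide, the ligand of Toll-like receptor 4 from Gram-negative bacteria), LPS alone, curcumin alone, or no treatment. Treatments lasted 6 h per the labels, which name neither a vehicle nor a time for the untreated cells. Each group has 3 one-colour arrays, 1 on each of 3 slides, and the replicate number of the labels is the slide. Nothing in the labels says that the 3 arrays of a group came from separate cultures, so p-values measure the spread between these arrays, which may be technical. Each group always took the same position on its slide, so group and position cannot be told apart.

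Complement is a cascade of plasma proteins that marks targets for uptake and lysis. It starts through the classical pathway, whose recognition molecule C1q is built from the chains of C1qa, C1qb and C1qc, through lectins, or through the alternative pathway, in which factor B (Cfb) forms the C3 convertase that properdin (Cfp) stabilises. All routes meet at C3. Microglia are the main source of C1q in the mouse brain, where C1q and C3 take part in the removal of synapses. Acute phase genes are those whose products rise in blood during inflammation. Saa3 encodes a serum amyloid A protein made by macrophages and fat as well as liver in mice, and Lcn2 encodes lipocalin 2, which binds bacterial siderophores and so withholds iron from bacteria.

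The promoters of the genes are shown first, because 3 of the 4 genes that responded to LPS have an entry in the RefSeq promoter table and can be set beside a C1q gene that was not called. The table (build GRCm38.p6) matched 6 of the 8 genes and did not match Cfb and C1qa. The stretches are the 250 bases upstream of the transcription start that the table uses, 5′ to 3′ on the minus strand, on which all of them lie, at chr17:57228137-57228386 for C3, chr7:46715677-46715926 for Saa3, chr2:32387740-32387989 for Lcn2 and chr4:136892915-136893164 for C1qc. For Saa3 this start lies inside the gene as RefSeq annotates it, and the C1qc stretch overlaps the annotated gene at its edge. Capitals mark matches, on either strand, to 6 searched motifs of factors known to act on acute phase or myeloid genes.
C3: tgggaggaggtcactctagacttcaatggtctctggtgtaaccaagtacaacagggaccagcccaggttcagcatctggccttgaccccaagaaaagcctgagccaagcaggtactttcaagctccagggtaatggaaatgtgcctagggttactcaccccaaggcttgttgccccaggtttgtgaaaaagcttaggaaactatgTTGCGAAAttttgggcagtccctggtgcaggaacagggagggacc
Saa3: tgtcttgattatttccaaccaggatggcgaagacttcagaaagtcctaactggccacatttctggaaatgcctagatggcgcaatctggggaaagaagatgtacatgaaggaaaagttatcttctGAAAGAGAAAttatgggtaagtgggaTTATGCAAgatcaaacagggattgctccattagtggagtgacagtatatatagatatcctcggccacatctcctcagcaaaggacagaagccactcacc
Lcn2: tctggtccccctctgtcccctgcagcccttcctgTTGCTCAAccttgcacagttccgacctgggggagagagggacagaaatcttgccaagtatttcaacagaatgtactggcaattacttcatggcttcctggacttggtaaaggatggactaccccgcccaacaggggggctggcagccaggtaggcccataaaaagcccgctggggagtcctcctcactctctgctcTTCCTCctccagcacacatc
C1qc: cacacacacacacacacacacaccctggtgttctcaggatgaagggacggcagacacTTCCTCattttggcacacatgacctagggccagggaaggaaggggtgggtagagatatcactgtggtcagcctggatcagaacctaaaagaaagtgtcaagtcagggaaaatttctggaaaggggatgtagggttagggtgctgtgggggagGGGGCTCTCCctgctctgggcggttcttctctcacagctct

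The searched letters were TTNNGCAA for C/EBP factors, TTTC-NN-TTTC for the interferon response element, TTCNNNGAA for STAT factors, TGANTCA for AP-1 and GAGGAA for PU.1, and the NF-kB consensus. The C/EBP letters matched in C3 (TTGCGAAA, minus strand, at position -45 from the start), in Saa3 (TTATGCAA at -99) and in Lcn2 (TTGCTCAA, minus strand, at -216). They did not match in C1qb, C1qc or Cfp, and 9.56% of all 32851 promoters in the table hold them. The interferon response element letters, found in 2.98% of promoters, matched only in Saa3 of the 6, at -125. PU.1 letters, found in 23.3% of promoters, matched in Lcn2 (at -20), C1qc (at -193) and C1qb (at -30), and the NF-kB consensus, found in 3.9%, matched in C1qc only, at -41. The letters of STAT (7.02% of promoters) and AP-1 (6.75%) matched in none of the 6. No 2 of the marked matches overlap. The motifs were chosen with earlier results of these data known. A match describes the letters of the window and is not evidence of a bound site.

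Between 58% and 65.9% of spots were well above background on an array, no spot was saturated, and 11 of 13 microglia and macrophage markers on the array, among them Csf1r, Aif1 and Trem2, were well above background on all 12 arrays. The microglial marker P2ry12 was above background on 4 arrays and Cx3cr1 on 9, while of 5 astrocyte markers Gfap, Aqp4 and Aldh1l1 were above it on 0 arrays, Slc1a3 on 4 and S100b on 12. One LPS+curcumin array stood apart from the other two. Over all genes tested, its replicate 1 had a mean correlation of 0.982 with LPS arrays but 0.95 with curcumin arrays. Replicates 2 and 3 had 0.939 and 0.922 with LPS arrays but 0.984 and 0.985 with curcumin arrays. Replicate 2 had 1766 spots marked as outliers by the scanner software, and no other array had more than 232. The main counts on LPS+curcumin are therefore given with and without replicate 1, as are some values of the 8 genes. Values of the further genes named below include it.

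LPS raised 4 of the 8 genes relative to untreated cells, C3 and Cfb of complement and Saa3 and Lcn2 of the acute phase response, and lowered 0 of 8. The 3 chains of C1q and properdin were not called. Lcn2 had entered the test only through its LPS arrays, where it was high, so its call adds no support to the count. Of all genes and transcripts tested, 5.73% were called in this comparison, 4.12% higher and 1.61% lower (limma, adjusted p below 0.05). At an unadjusted p below 0.05, 0 of the 8 were lower. For unadjusted counts, here and below, the share over all genes is not given, so they cannot be compared with it. In RNA from whole cultures, fewer cells that express a gene and less of its RNA per cell cannot be told apart. The values below are log2 levels, the log2 of the processed signal minus the log2 of the array's 75th percentile, in the order of replicates 1, 2 and 3. They can be compared between arrays for a gene but not between genes.

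C3 had log2 levels of 6.39, 5.42 and 5.56 on LPS arrays, against 3.48, 2.92 and 2.44 on untreated arrays. All LPS arrays lay above all untreated arrays, and C3 was already well above background without treatment. The change was 2.85 ± 0.42 on the log2 scale (SE, n = 3 arrays each), which is 7.19-fold, with a limma adjusted p of 0.00171. A second, much dimmer probe of C3 gave 2.64, and on the slides taken singly the main probe gave 2.92, 2.5 and 3.12. With all arrays of slide 2 left out, C3 (3.02, limma adjusted p = 0.0603) and Saa3 (6.57, 0.0646) were not called, and with slide 3 left out C3 was not (2.71, 0.0776).

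Cfb, the serine protease zymogen of the alternative pathway, had log2 levels of 3.04, 2.13 and 1.56 on LPS arrays, against -5.7, -5.82 and -5.7 on untreated arrays. The processed signals behind these were 5705, 3521 and 2535 on LPS arrays and 17.6, 17.3 and 18.2 on untreated arrays, dim but well above background. The difference of 7.99 ± 0.86 is 254-fold (limma adjusted p = 0.000364).

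Saa3 had log2 levels of 7.46, 7.33 and 6.36 on LPS arrays, against 0.94, -0.2 and -0.27 on untreated arrays. The groups were far apart, with a difference of 6.89 ± 0.86, or 119-fold (limma adjusted p = 0.00057), and 6.51, 7.53 and 6.63 on the single slides. Lcn2 had log2 levels of 0.68, 0.51 and -0.4 on LPS arrays, against -8.96, -9.64 and -9.76 on untreated arrays, none of which was well above background. Lcn2 entered the test only through its LPS arrays, and its level in untreated cells has only an upper bound. It was at least 202-fold higher with LPS (limma adjusted p = 0.000426), where the bound sets the LPS mean against the lowest signal well above background on each untreated array or the probe's own signal, whichever was higher. Lipocalin 2 is also a neutrophil granule protein, and the summed level of 5 neutrophil markers was 0.0968 to 0.208 on LPS arrays and 0.0408 to 0.051 on untreated arrays, in multiples of the array's 75th percentile. It was 0.217 to 0.353 on curcumin arrays, where Lcn2 was below background. Of these markers Elane and Ngp were above background on 0 of 12 arrays, Camp on 4, Prtn3 on 11 and Mpo on 12, and their part in the result was not tested.

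**Figure D1:**
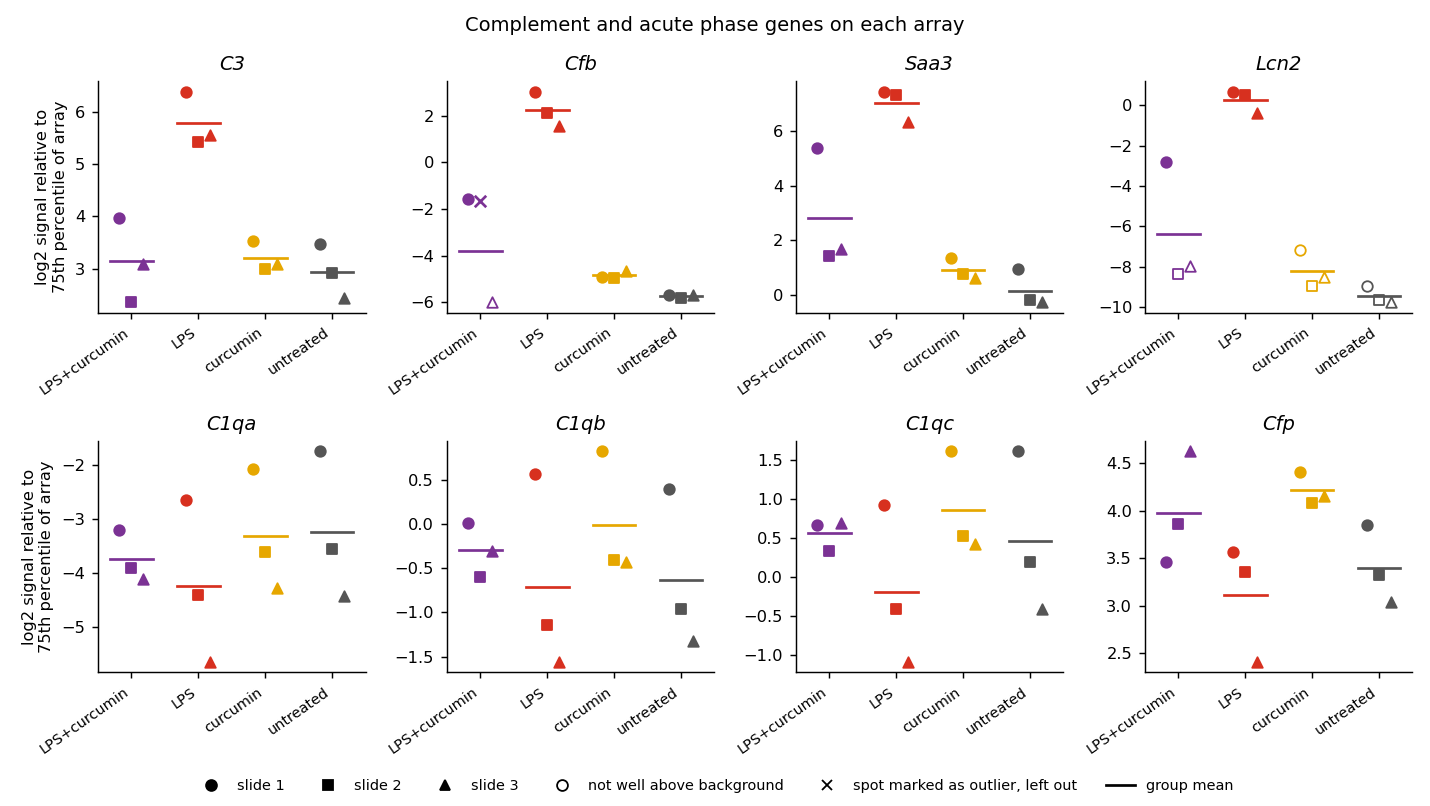
Log2 signal relative to the array's 75th percentile (y) of each gene on each array, by treatment (x). Symbols mark the slide, hollow symbols a spot not well above background, the cross an outlier spot left out of the fit, and lines the group means. LPS arrays lie above all others for C3, Cfb, Saa3 and Lcn2, while LPS+curcumin replicate 1 lies above the other LPS+curcumin arrays for C3, Saa3 and Lcn2.

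The C1q chains and properdin were not called with LPS. C1qa had log2 levels of -2.64, -4.41 and -5.64 on LPS arrays, against -1.74, -3.56 and -4.42 on untreated arrays. C1qb had 0.57, -1.14 and -1.56 on LPS arrays, against 0.4, -0.96 and -1.32 on untreated arrays. C1qc had 0.93, -0.41 and -1.09 on LPS arrays, against 1.62, 0.19 and -0.41 on untreated arrays. The groups overlapped for all 3 chains. The differences were -0.99 ± 0.84 for C1qa, -0.09 ± 0.59 for C1qb and -0.66 ± 0.58 for C1qc, with limma adjusted p-values of 0.766, 0.996 and 0.788. Compared slide by slide, C1qa was lower with LPS on each slide (-0.9, -0.85 and -1.22), as was C1qc (-0.69, -0.6 and -0.68), but with the slide as a term in the fit neither passed the threshold (adjusted p = 0.131 for C1qa and 0.386 for C1qc). Cfp had log2 levels of 3.57, 3.36 and 2.41 on LPS arrays, against 3.85, 3.32 and 3.04 on untreated arrays, and the difference of -0.29 ± 0.36 was not called (limma adjusted p = 0.913).

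The C1q chains had a wide spread between slides. The 3 untreated arrays alone spanned 2.68 log2 units for C1qa, 1.72 for C1qb and 2.03 for C1qc, ranges wider than those of 99.7%, 98.2% and 99% of all genes tested, whose median range was 0.34. The means of the 4 treatments spanned 0.99, 0.71 and 1.05 for the same chains. Slide 1 carried the highest value in 4 of 4 treatments for C1qa and C1qb and in 3 of 4 for C1qc. By contrast the untreated arrays spanned 0.12 for Cfb and 0.81 for Cfp. The RefSeq annotation places C1qb, C1qc and C1qa next to each other on chromosome 4, and over the 12 arrays their log2 levels correlated at 0.9 to 0.95 with each other. C3, Cfb, Saa3 and Lcn2 correlated at 0.93 to 0.99 with each other, and with the C1q chains at -0.38 to 0.07. These coefficients are descriptions over the 12 arrays (11 for Cfb), which share slides, treatments and scaling.

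**Figure D2:**
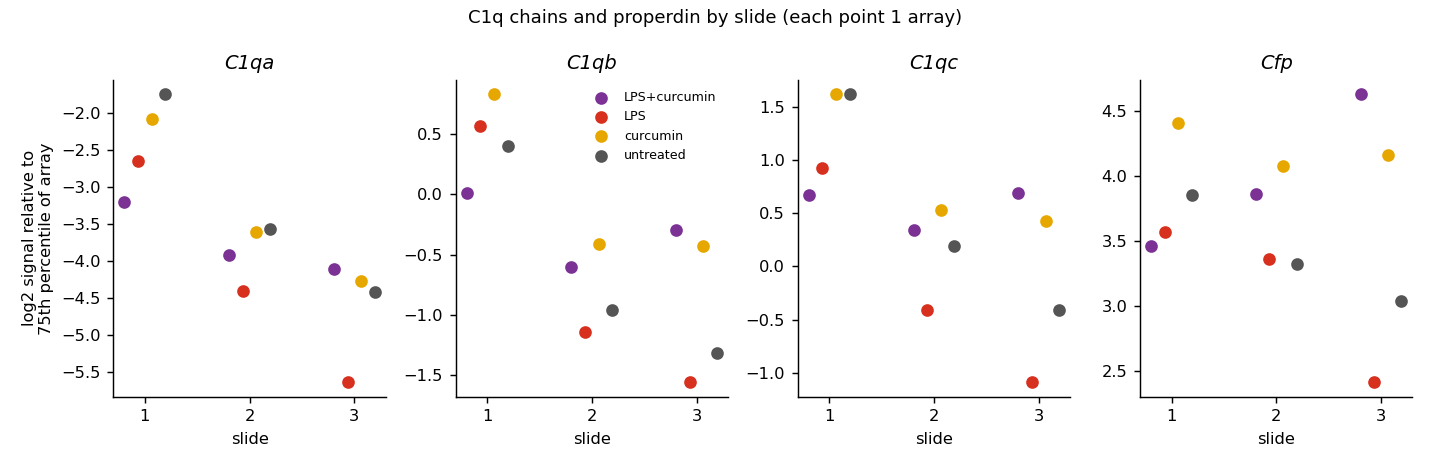
Log2 signal relative to the array's 75th percentile (y) of the C1q chains and properdin by slide (x), each point 1 array and each colour a treatment. For C1qa all arrays of slide 1 lie above those of slides 2 and 3, and for C1qb the mean over treatments is 0.45 on slide 1 against -0.78 and -0.9 on the other slides.

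The combination of LPS and curcumin left the 4 LPS-responsive genes lower than LPS alone. C3, Cfb, Saa3 and Lcn2 were lower in LPS+curcumin cells than in LPS cells, 0 genes were higher, and the C1q chains and properdin were not called. The call of Lcn2, which had entered the test only through the LPS arrays, adds no support to this count. Of all genes tested, 18.7% were called in this comparison, 12.7% higher and 5.99% lower, and the median change of all genes was 0.32. At an unadjusted p below 0.05, 1 of the 8 was higher.

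C3 had log2 levels of 3.97, 2.36 and 3.1 on LPS+curcumin arrays, against 6.39, 5.42 and 5.56 on LPS arrays. Each LPS+curcumin array was below each LPS array, and the difference was -2.65 ± 0.42 (limma adjusted p = 0.00324), or 6.27-fold lower. The dim second probe gave -2.15. The slides gave -2.42, -3.06 and -2.46, so for C3 replicate 1 showed a decrease close to the others.

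Saa3 had log2 levels of 5.4, 1.44 and 1.67 on LPS+curcumin arrays, against 7.46, 7.33 and 6.36 on LPS arrays. Replicate 1 was the highest of the LPS+curcumin arrays by far and still below all LPS arrays. The difference was -4.21 ± 0.86 (limma adjusted p = 0.00978), or 18.5-fold lower, and -5.5 ± 0.42 without replicate 1.

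Lcn2 had log2 levels of -2.83, -8.36 and -7.96 on LPS+curcumin arrays, against 0.68, 0.51 and -0.4 on LPS arrays. Only replicate 1 of the LPS+curcumin arrays was well above background. The fitted difference was -6.65 ± 1.16 (limma adjusted p = 0.00493), with 1 of 3 LPS+curcumin arrays measured above background. It was -3.51 on slide 1, and on slides 2 and 3 Lcn2 was at least 131-fold and at least 40.5-fold lower, both bounds on single pairs of arrays.

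Cfb had log2 levels of -1.59 and -6 on LPS+curcumin replicates 1 and 3, against 3.04, 2.13 and 1.56 on LPS arrays. Replicate 3 was not well above background, and the single Cfb spot of replicate 2, with a processed signal of 181, was marked as an outlier by the scanner software and left out of the fit. The fitted difference over the remaining arrays was -6.04 ± 0.97 (limma adjusted p = 0.00414), and with replicate 3 below background no fold is given. With the marked spot kept, at a log2 level of -1.65, the difference was -5.33 ± 0.94 (adjusted p = 0.00575).

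In LPS+curcumin cells C1qa had log2 levels of -3.2, -3.91 and -4.11, C1qb 0.01, -0.6 and -0.3, and C1qc 0.67, 0.34 and 0.69. All 3 ranges lay inside those of the LPS arrays given above. Relative to LPS the changes were 0.49 ± 0.84, 0.41 ± 0.59 and 0.76 ± 0.58 (limma adjusted p = 0.673, 0.609 and 0.337). Cfp had log2 levels of 3.46, 3.86 and 4.63 on LPS+curcumin arrays, against 3.57, 3.36 and 2.41 on LPS arrays, and its difference of 0.87 ± 0.36 was not called (limma adjusted p = 0.11). Without LPS+curcumin replicate 1 the differences were -3.06 for C3 and 1.13 for Cfp. Lcn2 had 2 LPS+curcumin arrays left, both below background, and was at least 83.9-fold lower. Cfb had 1 left, replicate 3, below background, and its bound of at least 254-fold lower rests on that array alone. The marked Cfb spot of replicate 2, left out here, was well above background at -1.65. It lay near the -1.59 of replicate 1 and does not meet that bound. Cfp then passed the threshold (limma adjusted p = 0.0237), as 1 of 5 genes called against 54.8% of all genes. With all arrays of slide 1 left out, 7 of the 8 were called, against 45.2% of all genes, among them C1qc (1.27, limma adjusted p = 0.0135) and C1qb (0.9, 0.0214) as higher. These values are relative to the array's 75th percentile. With all arrays kept, spike-in scaling gave -0.31 for C1qb, 0.04 for C1qc and 0.15 for Cfp, without a call. The median change of all genes was -0.4 on that scale. With slide 2 left out 0 were called by limma, against 0.0466% of all genes, and with slide 3 left out 1 was, against 1.13%. These shares are of adjusted calls. With slide 2 left out, 4 of the 8 had an unadjusted p below 0.05, without a matching share over all genes.

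**Figure D3:**
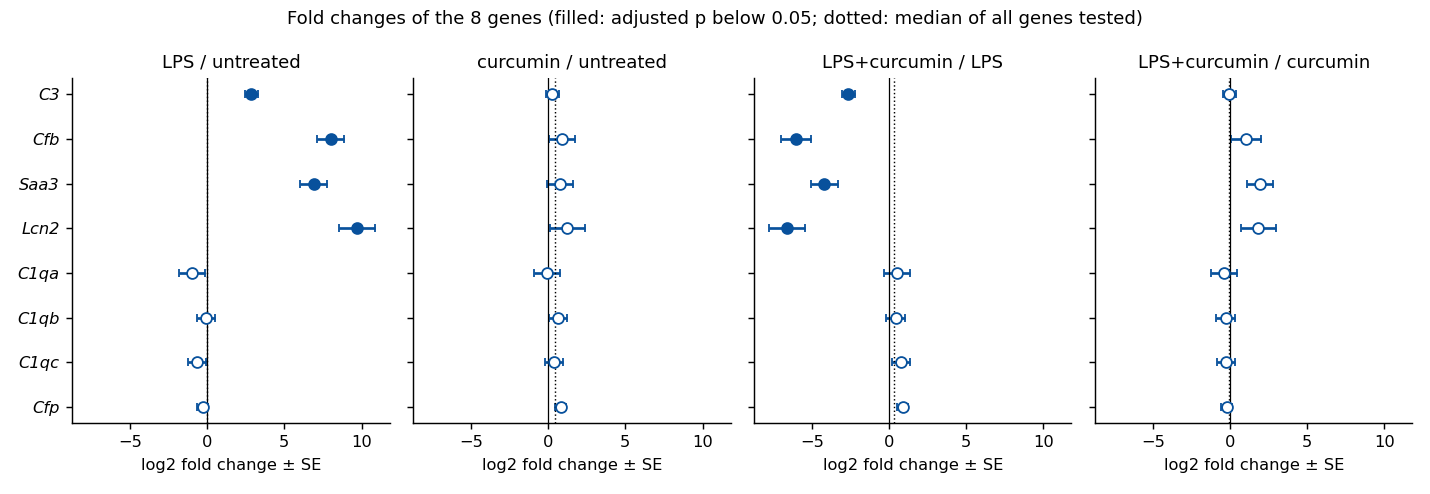
Log2 fold changes (x, with standard errors of the fit) of the 8 genes (y) in 4 comparisons, filled where the limma adjusted p was below 0.05. Dotted lines give the median of all genes tested. C3, Cfb, Saa3 and Lcn2 lie right of 0 for LPS over untreated and left of 0 for LPS+curcumin over LPS, and no gene is filled in the comparisons of curcumin with untreated or of LPS+curcumin with curcumin. The Lcn2 values rest on spots below background on all untreated and curcumin arrays.

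Curcumin alone changed 0 of the 8 genes by the limma test, while 29.2% of all genes tested were called (21.9% higher and 7.28% lower). At an unadjusted p below 0.05, 1 of the 8 passed. C3 had log2 levels of 3.54, 3 and 3.09 on curcumin arrays, which overlapped the untreated 3.48, 2.92 and 2.44, and Saa3 had 1.35, 0.77 and 0.63, against 0.94, -0.2 and -0.27 on untreated arrays. Cfb had -4.93, -4.94 and -4.68 on curcumin arrays, all above the untreated -5.7, -5.82 and -5.7, a difference of 0.89 ± 0.86 that was not called (limma adjusted p = 0.421). Lcn2, with -7.18, -8.94 and -8.52, was below background on all curcumin arrays, as on all untreated arrays, so no fold is given. Cfp had 4.41, 4.08 and 4.16 on curcumin arrays, against 3.85, 3.32 and 3.04 on untreated arrays. Its curcumin arrays lay above its untreated ones, with a difference of 0.82 ± 0.36 (limma adjusted p = 0.102). C1qa had -2.07, -3.6 and -4.27, C1qb 0.83, -0.41 and -0.43, and C1qc 1.62, 0.53 and 0.43 on curcumin arrays, and these overlapped the untreated arrays for all 3 chains.

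The scaling matters for curcumin. The median change of the 8 genes was 0.69 and that of all genes tested 0.41 with the 75th percentile, while the median of all genes was -0.69 when arrays were scaled on the spike-in probes. On the spike-in scale C3, Cfb, the 3 C1q chains, Cfp and Saa3 all had values below 0 for curcumin over untreated, without a call. Without LPS+curcumin replicate 1 the standard error for Cfb was 0.31 in place of 0.86, and Cfb (0.89, limma adjusted p = 0.0392) and Lcn2 (adjusted p = 0.0371, below background in both groups) were called, against 49.6% of all genes.

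With curcumin present, LPS changed 0 of the 8 genes by the limma test (LPS+curcumin against curcumin), where 0.212% of all genes tested were called, 0.202% higher and 0.0104% lower. At an unadjusted p below 0.05, 1 of 8 passed. C3 differed by -0.07 ± 0.42 (limma adjusted p = 0.983). Saa3 differed by 1.92 ± 0.86 (adjusted p = 0.844), with 4.06 on slide 1 and 0.67 and 1.04 on the others. Cfb differed by 1.05 ± 0.97, with 3.34 on slide 1 and -1.32 on slide 3. Lcn2 was well above background on 1 of the 3 LPS+curcumin arrays, on slide 1, and on no curcumin array. Its fitted difference was not called (limma adjusted p = 0.869), and no fold is given. The C1q chains and Cfp lay between -0.43 and -0.24. Without LPS+curcumin replicate 1, 0 of the 8 were called, against 0.347% of all genes, with Saa3 at 0.64 (adjusted p = 0.691), C3 at -0.48 (0.761) and Cfb, below background on its 1 remaining LPS+curcumin array, at a fitted -1.15 (0.419), and Lcn2 was then below background in both groups.

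Against untreated cells, LPS+curcumin cells had 1 of the 8 genes called, Saa3 at 2.68 ± 0.86 (limma adjusted p = 0.043), with 24.5% of all genes called, 18.2% higher. Its LPS+curcumin values of 5.4, 1.44 and 1.67 all lay above the untreated 0.94, -0.2 and -0.27. This call was lost in 17 of 27 alternative settings, with adjusted p-values up to 0.276. Without replicate 1 the difference for Saa3 was 1.4 (adjusted p = 0.0168), and Lcn2 was called as well (adjusted p = 0.0447), with neither group then well above background, against 53.6% of all genes. With the slide as a block Saa3 (adjusted p = 0.0143) and Lcn2 (0.0283) were called, against 34.3% of all genes.

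The effect of LPS with curcumin minus its effect without curcumin, the interaction, was -6.93 ± 1.3 for Cfb (limma adjusted p = 0.0452), the only call among the 8 genes, where 0.73% of all genes were called, 0.0207% higher and 0.709% lower. C3 gave -2.91 ± 0.59 (adjusted p = 0.0566), Lcn2 -7.89 ± 1.63 (adjusted p = 0.0611) and Saa3 -4.97 ± 1.21 (adjusted p = 0.134). The Lcn2 value uses spots below background on all curcumin and untreated arrays. All slides that gave a value went the same way for these genes, with -2.49, -3.14 and -3.11 for C3 and -2.46, -6.86 and -5.59 for Saa3. The C1q chains and Cfp lay between -0.21 and 0.56. With the slide as a block in the fit all 4 passed the threshold, C3 (adjusted p = 0.00499), Cfb at -6.98 (0.0325), Saa3 (0.0386) and Lcn2 (0.0205), against 1.19% of all genes. Without LPS+curcumin replicate 1 all 4 were called, at -3.33 for C3 (adjusted p = 0.00395), -6.25 for Saa3 (9.63e-05) and fitted values of -9.14 for Cfb (1.03e-05) and -9.66 for Lcn2 (1.14e-05), against 2.26% of all genes. The LPS+curcumin group of Cfb is then 1 array below background, assumed to vary like the other groups, and that of Lcn2 2 such arrays. With the marked Cfb spot kept, Cfb gave -6.22 (adjusted p = 0.0771), and its call was lost in 19 of 25 alternative settings.

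**Figure D4:**
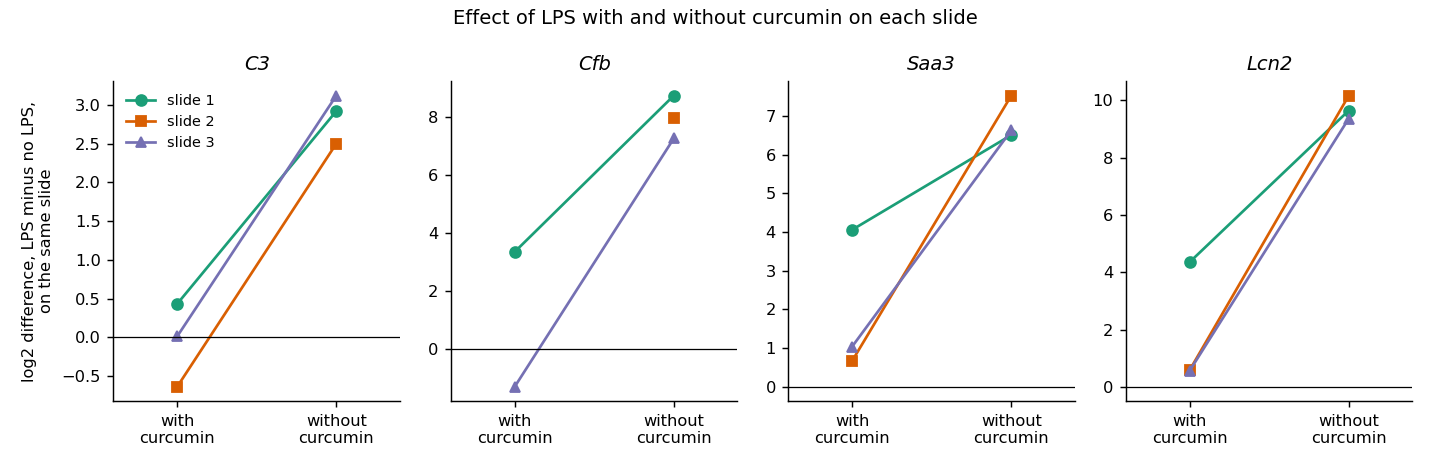
Log2 difference between arrays with and without LPS on the same slide (y), with curcumin and without it (x), for the 4 LPS-responsive genes. Each line is a slide, and slide 2 has no value for Cfb with curcumin. On slide 1 the difference was 4.06 for Saa3 and 0.43 for C3 with curcumin, against 6.51 and 2.92 without curcumin. The Lcn2 values rest on arrays below background without LPS and on slides 2 and 3 with both treatments, as does the Cfb value of slide 3 with both.

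For each gene the 3 other named genes with the most alike log2 levels over the arrays were taken from 12650 candidates by Pearson correlation, as a description. They were Cp, Tap2 and Gsap for C3 (0.988, 0.984 and 0.983), Irf7, Tnfsf10 and Batf2 for Cfb (0.991, 0.989 and 0.989), Syne2, Cpd and Saa1 for Saa3 (0.994, 0.992 and 0.991), and Xaf1, Il1f6 and Slfn5 for Lcn2 (0.993, 0.992 and 0.991). For the genes not called with LPS they were Mmp8, Mgst1 and Myl2 for C1qa (0.967, 0.915 and 0.91), Izumo4, Myl2 and Mrc1 for C1qb (0.965, 0.954 and 0.949), Pld4, Myl2 and Gamt for C1qc (0.962, 0.961 and 0.959), and Cst3, Cetn4 and Nosip for Cfp (0.985, 0.979 and 0.978). Myl2 stood in the list of each C1q chain. The points share slides and scaling, and with 4 groups many genes correlate highly.

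The wider complement and acute phase systems were followed through 80 further genes in 7 lists, of which 77 were on the array and 52 were tested. The other 25 on the array were not well above background on all arrays of any group, among them the acute phase genes Crp, Fga, Fgg and Ptx3, which were above it on 0 arrays. LPS raised 12 of the 52 and lowered 0, against 4.12% and 1.61% of all genes. Of the 12, 2 (Serping1 and Fpr2) had entered the test only through the LPS arrays, where they were high. At an unadjusted p below 0.05, 1 of the 52 was lower, Cebpa (-1.27 ± 0.5, limma adjusted p = 0.224), named after its values were seen. The median change of the 52 was 0.32, and that of all genes 0.01.

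Among other acute phase genes LPS raised 4 of 11 tested, Saa1, Saa2, Hp and Cp. Saa1, a serum amyloid A protein of plasma, had log2 levels of 5.74, 5.89 and 4.96 on LPS arrays, against -0.94, -1.16 and -1.15 on untreated arrays, a difference of 6.61 ± 0.6 (limma adjusted p = 8.13e-05). Saa2, its close paralogue, was at least 24.4-fold higher (adjusted p = 2.99e-05), and the probe sequences that would show how far the paralogues share signal were not analysed here. Haptoglobin (Hp), which binds free haemoglobin, rose by 3.06, and ceruloplasmin (Cp), the copper ferroxidase, by 3.51 ± 0.51.

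Of complement components LPS raised C2, the classical pathway counterpart of factor B, by 2.55 ± 0.34 (limma adjusted p = 0.000868), as 1 of 9 tested in the classical and lectin list, and 0 of 4 in the alternative and terminal list. Serping1, the C1 inhibitor, below background on all untreated arrays, was at least 6.9-fold higher (adjusted p = 0.000522), as 1 of 7 regulators. None of 8 complement receptors was called, and C5ar1, the receptor of the C5a fragment, gave 2.62 ± 0.8 (adjusted p = 0.0959). In the list named for receptors of lipocalin 2 and serum amyloid A, 2 of 4 genes were higher. These were the formyl peptide receptors Fpr1 (3.11 ± 0.51, limma adjusted p = 0.00347) and Fpr2 (at least 16.8-fold, adjusted p = 7.14e-06). Whether each listed gene binds these ligands was not tested.

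Of 9 transcription factors of these genes LPS raised 4, Nfkbiz, Stat3, Cebpd (2.71 ± 0.58, limma adjusted p = 0.0192) and Bcl3 (2.84 ± 0.59, 0.016), of which 1, Nfkbiz, was called on all 5 scalings. Nfkbiz encodes IκBζ, a nuclear cofactor of NF-kB that is needed for Lcn2 induction in mouse macrophages. It had log2 levels of 3.06, 2.66 and 2.84 on LPS arrays, against -1.78, -2.01 and -1.98 on untreated arrays (4.77 ± 0.32, limma adjusted p = 1.09e-05). With curcumin it kept a response to LPS, with 2.14, 1.03 and 0.73 on LPS+curcumin arrays, against -2.01, -2.29 and -2.58 on curcumin arrays. That difference of 3.59 ± 0.32 (adjusted p = 0.000656) was the only call of the 52 genes in the comparison of LPS+curcumin with curcumin, against 0.202% of all genes higher. Without LPS+curcumin replicate 1, 1 of the 52 was called higher and 0 lower there, against 0.347% of all genes called.

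Relative to LPS alone, LPS+curcumin lowered 15 of the 52 and raised 7, against 5.99% and 12.7% of all genes. Of the 7, 3 were called higher on all 5 scalings, and Mbl2, Cfd, Hc and Cd59b had entered the test only through the curcumin arrays. The 15 included Saa1 (-3.98 ± 0.6), Hp (-3.32 ± 0.49) and Cp (-3.15 ± 0.51), C2 (-1.24 ± 0.34), Serping1 (at least 3.38-fold lower), C3ar1, the C3a receptor (-1.26 ± 0.37), Fpr1 (-2.3 ± 0.51) and Fpr2 (at least 8.24-fold lower). Among them were 5 of 9 transcription factors, with Irf8 at -1.93 ± 0.28, Nfkbiz at -1.55 ± 0.32 and Cebpd at -2.54 ± 0.58. The limma adjusted p-values of the named genes, with C5ar1 included, ran from 0.000532 to 0.0414. All of these stayed called lower on each of 5 scalings, and 3 of the 15, Serping1, Fpr2 and C5ar1, had entered the test only through the LPS arrays. In the interaction 6 of the 52 were lower and 0 higher, C2 (-2.58 ± 0.48), Saa1 (-4.91 ± 0.86), Saa2, Hp, Cp (-3.86 ± 0.73) and Fpr2, against 0.709% of all genes lower. Of these 6, 2 (Saa2 and Fpr2) were called on all 5 scalings, and on the spike-in scale the adjusted p was 0.0505 for C2, 0.265 for Saa1, 0.392 for Hp and 0.402 for Cp. Fpr2 was below background on all LPS+curcumin, curcumin and untreated arrays, and Saa2 on all untreated arrays. The interaction values of both therefore use unmeasured levels. Without LPS+curcumin replicate 1, 20 of the 52 were higher and 16 lower than with LPS alone, against 54.8% of all genes called. In the interaction 10 were then lower and 0 higher, against 2.26% of all genes called.

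Curcumin alone raised 19 of the 52 genes and lowered 2, against 21.9% and 7.28% of all genes, and 11 of the 19 stayed called on all 5 scalings. On the spike-in scale 12 of the 52 were higher and 12 lower, against 1397 higher and 8360 lower of all 19318 genes tested. Of the 19, 8 (Mbl2, Cfd, Hc, C4bp, Cd59b, Saa4, Hamp and Itih3) had entered the test only through the curcumin arrays, where they were high, so their calls add no support to the count. Several encode plasma proteins made mainly by liver. Colec11, a collectin that starts the lectin pathway, had log2 levels of 0.71, 0.83 and 1.61 on curcumin arrays, against -6.13, -6.21 and -6.34 on untreated arrays, a difference of 7.28 ± 0.86 (limma adjusted p = 0.000607). On LPS+curcumin arrays it had -2.9, 0.57 and 1.53, against -6.18, -5.6 and -5.09 on LPS arrays, and replicate 1 was the lowest of its group. Mannose-binding lectin Mbl2 was at least 8.44-fold higher with curcumin (adjusted p = 0.00316), Hc, which encodes C5, at least 7.24-fold (0.0015), factor D (Cfd) at least 2.23-fold (0.00325), and C4bp, a cofactor in the inactivation of C4b, at least 8.75-fold (0.00616). Of the acute phase list Saa4 was at least 11.4-fold higher (0.00419), hepcidin (Hamp) at least 11.1-fold (0.00365) and Saa2 at least 4.36-fold (0.000962). Fpr2 counts among the 19 but was below background in both groups, so it has no fold. Relative to the array's 75th percentile, the summed markers of hepatocytes, endothelium, neutrophils, neurons and lymphocytes were higher on all curcumin arrays than on all untreated arrays. Those of astrocytes, oligodendrocytes and fibroblasts overlapped between these groups. The sums are not given on the spike-in scale. For curcumin over untreated the median change of all genes was -0.69 on that scale, against 0.41 with the 75th percentile. The summed level of the 3 hepatocyte markers Alb, Apoa1 and Ttr was 0.175 to 0.267 on curcumin arrays and 0.00748 to 0.00811 on untreated arrays, in multiples of the array's 75th percentile. The sum was 0.0136 to 0.171 on LPS+curcumin arrays and 0.00612 to 0.0193 on LPS arrays, and Ttr was above background on 0 arrays. The sum of the 2 endothelial markers Pecam1 and Cdh5 was 0.0836 to 0.115 on curcumin arrays and 0.00288 to 0.00623 on untreated arrays, with Cdh5 above background on 0 arrays, and the neutrophil sum given above was also higher on curcumin arrays. The part of these markers in the result was not tested.

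The 2 genes lowered by curcumin were C3ar1 (-1.35 ± 0.37, limma adjusted p = 0.0216) and the transcription factor Irf8, on all 5 scalings. Irf8, which guides microglial and macrophage development, had 2.78, 2.48 and 2.04 on curcumin arrays, against 4.16, 4.1 and 4.26 on untreated arrays (-1.74 ± 0.28, adjusted p = 0.00212). The curcumin arrays were below all untreated arrays for Irf8, while the C1q chains differed by -0.07 ± 0.84, 0.62 ± 0.59 and 0.39 ± 0.58 between the same arrays, without a call. Against untreated cells LPS+curcumin raised 20 of the 52 and lowered 1, Irf8 (-1.99 ± 0.28), against 18.2% and 6.26% of all genes. On the spike-in scale 11 were higher and 10 lower, against 1210 higher and 7879 lower of all 19318 genes tested. On all 5 scalings 6 of the 20 were called higher. Without LPS+curcumin replicate 1, 25 were higher and 2 lower, against 53.6% of all genes called. Of the 20, Mbl2, Cfd, Hc, C4bp, Cd59b, Saa4 and Hamp had entered the test only through the curcumin arrays. Only some of their LPS+curcumin arrays were above background, and Fpr2 was below it in both groups, so these calls add no support to the count.

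**Figure D5:**
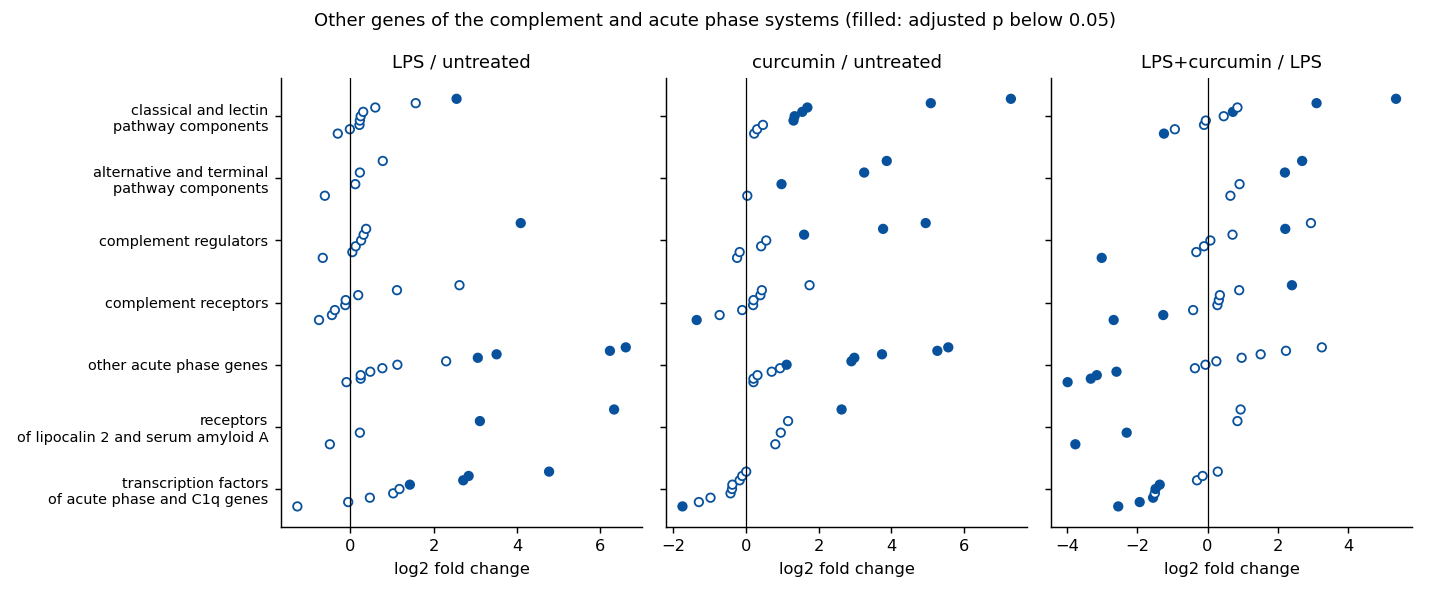
Log2 fold changes (x) of the 52 tested genes of the 7 lists (y), each point 1 gene, filled where the limma adjusted p was below 0.05. LPS raised 12 and lowered 0 genes, curcumin raised 19 and lowered 2, and LPS+curcumin relative to LPS raised 7 and lowered 15. Genes below background in 1 group are plotted at their fitted value, which is not a measured fold.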

How the data were processed

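Cy3-labelled RNA of BV-2 cells was measured on 12 one-colour Agilent arrays, per the labels' protocols. The deposited scanner files hold intensities per spot. Their headers name version 10.5.1.1 of Agilent's Feature Extraction software and the submitters' processing notes version 9.1. The authors' processed signal, an intensity after background subtraction per the file headers, was used. The deposited value table equals it within 0.397% and was an alternative. Gene names came from RefSeq accessions (assembly GRCm38.p6).

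Signals were put on a log2 scale relative to the array's 75th percentile. Spots marked as outliers were left out, spots of a probe averaged, and the brightest probe taken for a gene. A gene was tested if well above background on all 3 arrays of any group. The test was limma (version 3.58.1, R 4.3.3), with 4 group means, moderated by eBayes, two-sided, with Benjamini-Hochberg adjustment over all genes tested and calls below 0.05. It was tested on simulated data. The number of arrays limits the precision. Members, gene lists and motifs were chosen with earlier results of these data known. Named list genes were those called with the smallest adjusted p, up to 3 per list and comparison, plus genes named with a count. Of the list of transcription factors, 2 genes are not reported here and enter no list count.

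Slide and replicate number coincide. Deviations of same-slide arrays from their group means correlated above 0.1 in every pair for LPS and untreated (lowest 0.237), curcumin and untreated (0.213) and LPS+curcumin and curcumin (0.37), not for LPS+curcumin with untreated (0.089) or LPS (-0.02). The slide as a block changed no call of the 8 genes in the first 3 comparisons. Alternatives covered scaling, background correction (normexp with offset 50 on the median signal, the mean signal not being used here), filters, probe choice, outlier spots (added after seeing the data), arrays in the fit, the block and left-out arrays.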

Additional observations from a re-analysis of the deposited data

Results flagged for a closer look

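The effect of LPS on Cfb differed with and without curcumin. With curcumin it was 1.05 ± 0.97 on the log2 scale, and without curcumin 7.99 ± 0.86, and the tested difference was -6.93 ± 1.3 (limma adjusted p = 0.0452, between 1.03e-05 and 0.903 over the alternative settings). The difference was negative on both slides with a value, -5.39 on slide 1 and -8.58 on slide 3. It rests on 2 LPS+curcumin arrays, whose log2 levels were -1.59 and -6, the lower of them not well above background.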

How the results depend on the processing

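Of 27 alternative settings (26 for the interaction), 15 left out 1 array or all arrays of a slide. LPS over untreated kept 4 called genes in most of them, with 2 called when probes had to be above background on all 12 arrays and a range of 2 to 4 with arrays left out. Curcumin over untreated had 3 called genes when only the arrays of both groups were fitted, and 0 to 2 with arrays left out. LPS+curcumin over untreated had 0 called genes with quantile, median, spike-in and always-detected scaling, with normexp and with only the arrays of both groups, 2 with the replicate block, and 0 to 3 with arrays left out. LPS+curcumin over LPS had 2 called genes with normexp, 2 with probes above background on all 12 arrays, 1 with only the arrays of both groups, and 0 to 7 with arrays left out. LPS+curcumin over curcumin had 0 to 1 with arrays left out. The interaction had 0 called genes with quantile, median, spike-in and always-detected scaling, normexp, no filter, probes above background on all 12 arrays and outlier spots kept, 4 with the replicate block, and 0 to 4 with arrays left out. With that block the interaction of C3 was -2.91 (limma adjusted p = 0.00499) and that of Saa3 -4.97 (0.0386), and same-slide arrays of LPS+curcumin and of LPS or untreated did not deviate together in every pair. C3, Cfb, Saa3 and Lcn2 kept their direction for LPS over untreated and for LPS+curcumin over LPS in every setting that gave them a value, and Cfb and Lcn2 had none where probes had to be above background on all 12 arrays. Counts over all genes ran from 196 to 2397 for LPS over untreated (1107 in the main setting), 20 to 10544 for curcumin over untreated (5635), 25 to 13438 for LPS+curcumin over untreated (4730), 9 to 10584 for LPS+curcumin over LPS (3620), 4 to 202 for LPS+curcumin over curcumin (41) and 0 to 437 for the interaction (141). Counts over the 52 list genes ran from 5 to 19, 0 to 29, 0 to 31, 0 to 36, 0 to 2 and 0 to 10 in the same order. Calls for curcumin over untreated were higher in 75% with the 75th percentile and in 14.3% with spike-in scaling.

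The sign turned in 40 values of settings that kept all arrays and in 48 with arrays left out, all of genes not called there, and the cause was not tested. With quantile scaling the log2 values were Cfb -0.01 for curcumin over untreated, and C1qa -0.22 for LPS+curcumin over LPS, and C3 0.01 for LPS+curcumin over curcumin. With scaling on the median the log2 values were C3 -0.57, C1qb -0.22, C1qc -0.44, Cfp -0.02 and Saa3 -0.08 for curcumin over untreated, and C3 -0.68, C1qb -0.56, C1qc -0.78 and Cfp -0.31 for LPS+curcumin over untreated, and C1qa -0.24 and C1qb -0.32 for LPS+curcumin over LPS. With scaling on spike-in probes the log2 values were C3 -0.84, Cfb -0.21, C1qb -0.48, C1qc -0.71, Cfp -0.29 and Saa3 -0.35 for curcumin over untreated, and C3 -0.8, C1qb -0.67, C1qc -0.9 and Cfp -0.42 for LPS+curcumin over untreated, and C1qa -0.23 and C1qb -0.31 for LPS+curcumin over LPS, and C3 0.04 for LPS+curcumin over curcumin, and C1qb 0.17 for the interaction. With normexp correction the log2 values were C3 -0.51, C1qa 0.81 and C1qc -0.11 for curcumin over untreated, and C1qa 0.13 for LPS+curcumin over untreated, and C3 0.63, Cfb -0.02, C1qc 0.14, Cfp 0.45 and Lcn2 -0.47 for LPS+curcumin over curcumin, and C1qa -0.35 and C1qb 0.03 for the interaction. With the mean of all probes of a gene the log2 values were C3 0.21 for LPS+curcumin over curcumin. With arrays left out these ranges crossed 0. For LPS over untreated the range was -0.72 to 0.43 for C1qb and -0.52 to 0.06 for Cfp. For curcumin over untreated the range was -0.69 to 0.68 for C1qa and -0.04 to 0.97 for C1qc. For LPS+curcumin over untreated the range was -0.22 to 0.59 for C3, -0.26 to 4.17 for Cfb, -1.09 to 0.25 for C1qa, -0.02 to 0.84 for C1qb and -0.4 to 0.68 for C1qc. For LPS+curcumin over LPS the range was -0.21 to 1.28 for C1qa and -0.01 to 1.05 for C1qb. For LPS+curcumin over curcumin the range was -0.48 to 0.32 for C3, -1.19 to 3.34 for Cfb, -0.91 to 0.19 for C1qa, -0.51 to 0.12 for C1qb, -0.57 to 0.09 for C1qc and -0.59 to 0.12 for Cfp. For the interaction the range was -0.19 to 1.35 for C1qa, -0.72 to 0.43 for C1qb, -0.21 to 0.92 for C1qc and -0.47 to 0.41 for Cfp.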
